A study of Homo sapiens with 14 samples.

Results

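Genes of the H3K9 methylation and heterochromatin protein 1 (HP1) system were followed by poly(A)-selected RNA-seq through 7 groups of IMR90, primary human fetal lung fibroblasts. The set of 10 genes was given as a list, out of 24307 genes listed in all 3 kinds of deposited table. Earlier results of these data were known, but the 10 genes were not chosen by any measured value of their own. They comprise the HP1 genes CBX1, CBX3 and CBX5, the H3K9 methyltransferase genes SUV39H1, SUV39H2, SETDB1, EHMT1 and EHMT2, and the partner genes TRIM28 and ATRX. The cells were grown as isolates named I79 and I10, and each was sampled while proliferating (young) and once passaged into replicative senescence (old). A further I79 group received ICM (inflachromene), a compound known to bind HMGB1 and HMGB2, abundant nonhistone proteins of chromatin. The remaining groups were wild type (WT) and cells in which siRNA had depleted HMGB2 (HMGB2 KD). Their labels name no isolate, and no control siRNA for WT. The titles list 2 samples in each group. Nothing in the labels says that these came from separate cultures, so p-values measure the spread between these samples or isolates, which may be technical.

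Methylation of lysine 9 of histone H3 marks silent chromatin. The SUV39H enzymes deposit the trimethyl mark at pericentromeric repeats, SETDB1 deposits it at genes and transposons to which TRIM28 recruits it, and the EHMT1 and EHMT2 heterodimer (GLP and G9a) deposits the mono- and dimethyl marks. HP1 proteins read the methylated lysine through a chromodomain and bridge nucleosomes, and ATRX, a chromatin remodeller, loads histone H3.3 at heterochromatin with its partner DAXX. In senescent fibroblasts this system is known for the condensed DNA foci that can form and for the erosion of heterochromatin with passage.

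In GRCh37, CBX5 lies on chromosome 12 from 54624726 to 54673917, CBX1 on chromosome 17 from 46147414 to 46178840, CBX3 on chromosome 7 from 26240782 to 26253227, SUV39H1 on chromosome X from 48553945 to 48567407 and SUV39H2 on chromosome 10 from 14920819 to 14946314. Promoters of 8 of the 10 genes were found in a RefSeq table (GRCh38.p14), each covering 250 bases before and 50 bases after the start. Those of the 4 genes with the lowest old to young fold changes are shown so that the starts of the genes that moved most can be read side by side. Letters were searched on both strands for 4 motifs common at cell cycle and housekeeping promoters (E2F, CHR, CCAAT and YY1), and capitals mark the matches.
CBX1 (chr17:48101137-48101436, minus strand): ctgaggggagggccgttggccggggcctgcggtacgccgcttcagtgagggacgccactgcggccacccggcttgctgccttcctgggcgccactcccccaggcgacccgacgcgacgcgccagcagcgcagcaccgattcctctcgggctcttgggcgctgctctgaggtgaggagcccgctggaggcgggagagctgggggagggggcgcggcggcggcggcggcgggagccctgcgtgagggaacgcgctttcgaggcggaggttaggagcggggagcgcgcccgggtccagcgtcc
CBX5 (chr12:54280073-54280372, minus strand): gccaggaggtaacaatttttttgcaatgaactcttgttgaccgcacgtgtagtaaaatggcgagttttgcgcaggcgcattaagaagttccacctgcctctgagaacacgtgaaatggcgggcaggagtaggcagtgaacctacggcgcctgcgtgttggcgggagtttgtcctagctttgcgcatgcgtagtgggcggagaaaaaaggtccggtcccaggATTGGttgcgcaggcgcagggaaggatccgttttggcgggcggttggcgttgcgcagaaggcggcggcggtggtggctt
SUV39H1 (chrX:48696484-48696783, plus strand): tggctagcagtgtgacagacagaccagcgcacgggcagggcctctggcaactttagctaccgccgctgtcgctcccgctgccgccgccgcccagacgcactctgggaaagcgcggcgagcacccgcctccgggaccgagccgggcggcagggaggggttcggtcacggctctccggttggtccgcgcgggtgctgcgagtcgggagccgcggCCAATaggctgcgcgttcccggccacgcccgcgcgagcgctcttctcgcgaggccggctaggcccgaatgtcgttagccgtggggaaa
SUV39H2 (chr10:14878616-14878915, plus strand): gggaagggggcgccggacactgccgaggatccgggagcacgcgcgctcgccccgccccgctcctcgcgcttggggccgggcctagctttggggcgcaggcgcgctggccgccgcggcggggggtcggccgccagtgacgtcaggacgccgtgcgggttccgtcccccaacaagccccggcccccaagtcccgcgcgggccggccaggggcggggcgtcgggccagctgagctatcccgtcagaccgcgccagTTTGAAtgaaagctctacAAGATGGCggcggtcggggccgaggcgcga

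CBX1 held no match. CBX5 and SUV39H1 each held CCAAT in the promoter shown, starting at position -29 and -38 from the start, against 34.6% of 35116 RefSeq promoters with that pentamer. RefSeq gave 3 promoters for CBX5, each with CCAAT, and 2 for SUV39H1, of which the one not shown held no match. SUV39H2 held the CHR hexamer TTTGAA at position 3, against 15.2% of promoters, and the YY1 core letters AAGATGGC at position 21, against 2.89%. CBX3 held the only E2F match of the 12 promoters of these genes, TTTGGCGC at position -4. Any of 4 E2F strings (TTTCGCGC, TTTGGCGC, TTTCCCGC, TTTGCCGC) stood in 3.31% of promoters, and the 4 motifs were searched separately. The transcripts with the highest TPM summed over the old and young columns were placed by the first 20 bases of their GENCODE v44lift37 sequences. Lengths there can differ from those quantified (2182 against 2232 bases for CBX1-201). Those of CBX5 and SUV39H1 began at the start shown. SUV39H2-205, which led SUV39H2-202 only narrowly, began 46 bases before the SUV39H2 start (position -46). The first 20 bases of those of CBX1 and CBX3 were not found in the 300 bases. The CBX5 start lies 60 bases from that of HNRNPA1, which encodes an RNA-binding protein and is transcribed the other way.

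The old and young tables held between 14991385 and 20632959 estimated counts in 1 column per group, the WT and HMGB2 KD libraries between 33561766 and 41168932 counts, and the 2 ICM libraries 13290131 and 10971132 reads. HMGB2 stood at 27.1 and 27.3 CPM (counts scaled to library size by TMM) in the WT libraries and reached only 3.22 and 3.64 CPM after knockdown, which is -2.99 on the log2 scale (SE 0.16). All 8 fibroblast markers examined were above 1 CPM in every library. SFTPC, which marks alveolar epithelium, was at 0 in every library, as was the T cell gene CD3E. Of the endothelial markers CDH5 was at 0 in every library, and the summed level of the list ran from 0.37 to 9.86 CPM, most of it KDR and VWF. The summed level of 4 epithelial markers stayed between 0.32 and 7.82 CPM.

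Passaging into senescence was examined first, because both isolates were sampled on either side of it. Expression of all 10 genes had a fitted log2 fold change below 0 in old cells, while 50.5% of the 15135 genes tested did. Of the 10, 3 were called lower (CBX1, CBX5 and SUV39H2). A call required an adjusted p under 0.01 together with a fold change over 0.6 on the log2 scale in either direction, and 3.69% of all genes were called lower and 9.34% in all. None was called higher. The median log2 fold change of the 10 genes was -0.51 and that of all genes tested -0.01. Each group had 1 column, so the 2 isolates served as the replicates in edgeR's quasi-likelihood test, with isolate as a covariate and 1 residual degree of freedom. In bulk RNA, fewer cells of a kind and less RNA per cell cannot be told apart.

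CBX5 encodes HP1 alpha, the isoform concentrated in constitutive heterochromatin. It stood at 187 CPM in I79 young and 113 in I79 old, and at 207 in I10 young and 118 in I10 old. Old was lower than young in both isolates, as for 40.8% of all genes tested. The log2 fold change was -0.77 (SE 0.10, adjusted p 0.0094 by edgeR). Within the isolates the log2 ratios were -0.72 (95% exact counting interval -0.81 to -0.64) in I79 and -0.81 (-0.89 to -0.74) in I10.

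CBX1 encodes HP1 beta. It stood at 119 and 71.1 CPM in I79 young and old, and at 128 and 75.3 CPM in I10 young and old, again lower in old in both. The log2 fold change was -0.75 (SE 0.10, adjusted p 0.0087 by edgeR), with ratios of -0.74 in I79 and -0.76 in I10. The call was lost with counts rebuilt from deposited TPM (adjusted p 0.0174). CBX3, which encodes HP1 gamma, an isoform also found over transcribed genes, had 209 and 145 CPM in young and old I79 and 218 and 163 CPM in I10. Its log2 fold change of -0.47 (SE 0.10, adjusted p 0.031) stayed under the fold minimum in size, so it was not called.

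Among the methyltransferase genes the lowest fold changes were those of the SUV39H pair. SUV39H2 stood at 11.3 CPM in I79 young and 4.12 in I79 old, and at 10.5 in I10 young and 4.09 in I10 old. Its log2 fold change was -1.41 (SE 0.19, adjusted p 0.0098 by edgeR), and each old column rested on few reads, 76 and 74 estimated counts. The call was lost in DESeq2 (adjusted p 0.0149) and with counts rebuilt from deposited TPM (adjusted p 0.0127 by edgeR). SUV39H1 stood at 9.41 and 4.56 CPM in I79 young and old and at 8.55 and 4.26 CPM in I10 young and old. Both isolates were lower in old, and the log2 fold change was -1.03 (SE 0.20), but the adjusted p by edgeR was 0.022 and SUV39H1 was not called. At an adjusted p under 0.05 it passed, so that 4 of the 10 genes then passed lower, against 12% of all genes.

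EHMT1 stood at 56.4 CPM in young and 40.0 in old I79, and at 52.8 and 37.5 in I10. Its log2 fold change was -0.49 (SE 0.10, adjusted p 0.026 by edgeR). Its partner EHMT2 had a smaller value of -0.29 (SE 0.11, adjusted p 0.11), with 55.3 and 48.3 CPM in I79 young and old and 52.9 and 40.4 CPM in I10 young and old. SETDB1 stood at 29.4, 25.7, 31.9 and 23.7 CPM in I79 young, I79 old, I10 young and I10 old (log2 fold change -0.31, SE 0.13, adjusted p 0.13). None of these 3 passed the fold minimum.

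TRIM28, the corepressor that docks SETDB1 and HP1 onto KRAB zinc finger proteins, stood at 224 and 169 CPM in I79 young and old and at 222 and 140 CPM in I10 young and old. The log2 fold change was -0.53 (SE 0.12, adjusted p 0.030 by edgeR), under the fold minimum in size. ATRX had the smallest difference, at 124 and 111 CPM in I79 and 133 and 134 CPM in I10, so that old and young columns overlapped (log2 fold change -0.07, SE 0.11, adjusted p 0.65). Both isolates were lower with age for the other 9 genes, and 40.8% of all genes tested were lower in both.

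**Figure D1:**
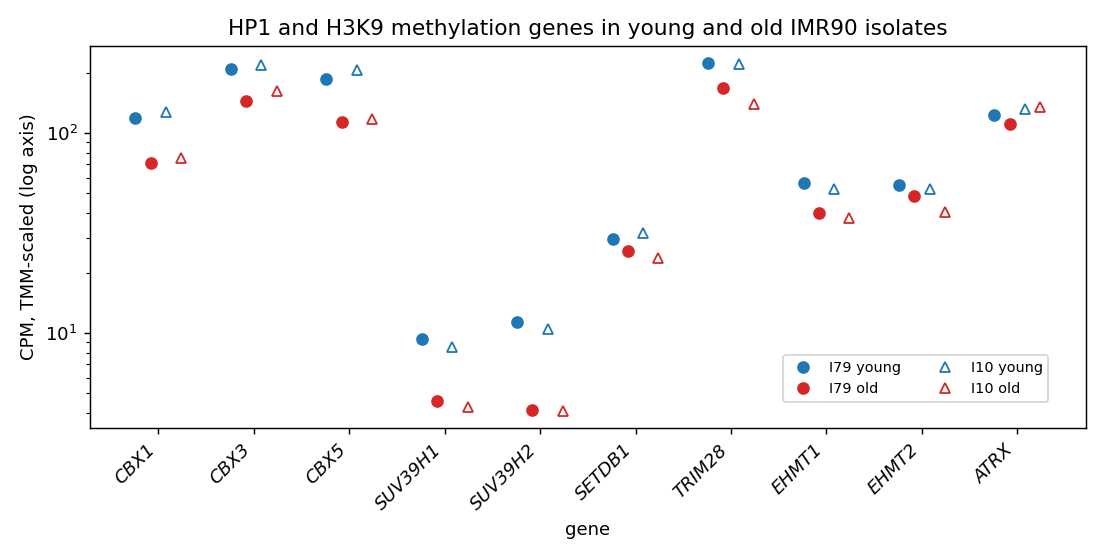
Level of each gene in CPM (TMM-scaled, log axis) in the I79 columns (circles) and I10 columns (open triangles), young in blue and old in red. Each point is 1 deposited column. The old point lies below the young point in both isolates for 9 of the 10 genes, as for 40.8% of all genes tested, and for ATRX in I79 only. Heights are not comparable between genes, since CPM is not divided by length.

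Per length (deposited TPM), TRIM28 was the most abundant of the 10 in each of the 4 columns, at 290 and 322 TPM in young I79 and I10 and 203 and 178 TPM in old, followed by CBX3 and CBX1. SUV39H1 was the least abundant in each, at 5.68 and 6.48 TPM in young and 2.50 and 3.22 TPM in old, next to SUV39H2 at 9.33 and 10.6 TPM in young and 3.47 and 3.58 TPM in old. Of the 5 genes in between, SETDB1 was lowest in each column, at 15.1 to 19.4 TPM, and the other 4 changed places between columns. EHMT1 went from 30.8 TPM in young to 41.3 TPM in old I79, against the direction of its counts, and from 63.6 to 32.8 TPM in I10. Its reads were split among 52 listed transcripts, so its TPM rests on that split. The TRIM28 sum rests on a split over 15 listed transcripts as well. TRIM28-201 held 22.4% and 17.8% of it in young I79 and I10 and 22.2% and 16.4% in old. Retained-intron transcripts were part of the rest, the largest being TRIM28-212 with 17.7% in I79 young, so the first rank of TRIM28 carries that limit.

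The isolates were set side by side for the same genes. The log2 ratio of I10 to I79 lay between -0.14 and 0.14 among young columns and between -0.27 (TRIM28) and 0.28 (ATRX) among old columns. The isolates were not tested against each other.

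Transcripts were examined for a change of isoform. CBX1-201, CBX3-202 and CBX5-201, which are protein-coding, carried most of their genes' TPM. CBX5-201 had 181 and 112 CPM in young and old I79 and 200 and 112 CPM in I10. CBX1-201 went from 114 to 67.7 CPM and from 127 to 72.4 CPM. SUV39H2 was split between the protein-coding SUV39H2-202, which had the higher TPM in 3 of the 4 columns (2.53 and 1.26 CPM in young and old I79 and 2.59 and 1.11 CPM in I10), and SUV39H2-205, annotated as a target of nonsense-mediated decay, which had the higher TPM in I79 young. SUV39H2-205 had 8.29 and 2.84 CPM in young and old I79 and 6.19 and 2.21 CPM in I10. EHMT2-202 was higher in old cells in both isolates (2.01 to 8.79 CPM and 2.22 to 4.09 CPM), while EHMT2-203, the leading EHMT2 transcript, was lower (34.8 to 17.4 and 33.4 to 21.1 CPM). Of 151 transcripts listed for the 10 genes, 54 were tested and 39 had a fold change below 0. edgeR called 0 of them, as it called 0% of 46073 transcripts (lowest adjusted p 0.27). At an unadjusted p under 0.05 stood 13 of the 54, all lower, and 15% of all transcripts (6.73% lower). DESeq2 was run on every transcript with any counts, not only on those edgeR tested. It called CBX5-201 alone of the 151 listed for the 10 genes, and 1392 of all 200468 listed transcripts.

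The wider pathway was examined through lists of related genes. No gene of 8 tested further H3K9 writers and cofactors, of 5 genes of the HUSH silencing complex and MORC family or of 3 H4K20 methyltransferases was called by edgeR or DESeq2 (medians -0.17, 0.11 and -0.13). In edgeR, 3 of the writers and cofactors and none of the others had an unadjusted p under 0.05. No share of all genes was taken at that unadjusted p. Of 11 H3K9 demethylases, KDM1A was called lower (log2 fold change -0.97, SE 0.11, adjusted p 0.0072 by edgeR), a share near the 9.34% of all genes called in either direction. DESeq2 called KDM4A as well as KDM1A. At an adjusted p under 0.05 in edgeR, KDM4A (-0.78) and KDM4D (-2.03) also passed lower and KDM3A (0.65) and KDM4B (0.62) higher, named after their values were seen. Of all 15135 genes tested, 1817 passed lower and 2030 higher at that threshold. The list's median was -0.28. Of 19 HP1 binding and heterochromatin assembly genes, 5 were called lower and none higher, where 3.69% of all genes were called lower. They were UHRF1 (-2.55, SE 0.23), which couples H3K9 methylation to DNA methylation at replication, CHAF1B (-1.39, SE 0.17) and CHAF1A (-1.30, SE 0.16), subunits of the replication-coupled histone chaperone CAF-1, INCENP (-1.32, SE 0.15), the centromeric scaffold of Aurora B, and LBR (-1.17, SE 0.11), the inner nuclear membrane receptor that binds HP1. DAXX, the partner of ATRX, was not called (-0.46, adjusted p 0.026). The median of the 19 was -0.40.

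Markers of proliferation moved with these genes. Of 11 tested proliferation genes 9 were called lower, with a median log2 fold change of -2.19, and MKI67 stood at 194 and 21.8 CPM in young and old I79 and at 228 and 54.1 CPM in I10. TOP2A (-2.19), CDK1 (-1.80) and LMNB1 (-2.86) were called lower and CDKN1A, which encodes the cell cycle inhibitor p21, higher (2.48). CCNA2, the remaining list member, was listed at 0 in 3 of the 4 columns and was not tested. The summed level of the 12 proliferation genes was 1066 and 1178 CPM in young I79 and I10 and 218 and 332 CPM in old. The summed level of 4 immune markers was 21.6 and 23.3 CPM in young and 158 and 84.8 CPM in old, nearly all of it CD68, a lysosomal protein that fibroblasts also make, with PTPRC, CD3E and LYZ each under 1 CPM. Of 3 smooth muscle markers, MYH11 was called lower (-3.24, SE 0.17), while the summed level of the 3 was 94.1 and 79.3 CPM in young and 78.9 and 92.4 CPM in old. The summed level of the endothelial markers was 0.64 and 0.37 CPM in young I79 and I10 and 7.22 and 2.54 CPM in old, with VWF 2.69 above young on the log2 scale but not called (edgeR adjusted p 0.013) and CDH5 at 0. Of 8 fibroblast markers LUM was called higher (0.92, SE 0.12), 6 had fold changes above 0 and 2 below, and their sum was 26260 and 25048 CPM in young and 22292 and 29996 CPM in old. The part of these differences in the lower level of CBX1, CBX5 and SUV39H2 was not tested.

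Several of the 10 genes share a start region with a gene on the other strand, and no source says whether counting was stranded. HNRNPA1, beside CBX5, was called lower (1159 to 537 CPM in I79 and 1171 to 557 CPM in I10, log2 fold change -1.09, adjusted p 0.0083 by edgeR). HNRNPA2B1, which overlaps CBX3 at its start, stood at 751 and 263 CPM in I79 young and old and at 752 and 403 CPM in I10, and was not called (log2 fold change -1.21, adjusted p 0.014). SUV39H2-DT beside SUV39H2 and ARRDC1-AS1 beside EHMT1 were not called (0.20 and -0.09). C2, beside EHMT2, was at most at 5.37 CPM, and RN7SL525P, beside TRIM28, was listed at 0. SUV39H2 also overlaps DCLRE1C, SETDB1 overlaps CERS2 and EHMT2 overlaps EHMT2-AS1 on the other strand, so reads in the overlaps cannot be told apart without strand. Near copies can also share reads. In the old, young, WT and HMGB2 KD tables, named pseudogenes held at most 0.64% of the CBX3 counts, at most 0.13% of the CBX1 counts and none of the CBX5 counts, while the ICM tables list 1 of 10 named CBX3 pseudogenes and none of those of CBX1 and CBX5. Of the windows of 50 bases in the leading transcripts, 9.94% of those of CBX3, 4.5% of those of CBX1 and none of those of CBX5 stood in a named pseudogene as well, and none was shared between the 3 HP1 genes.

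HMGB2 knockdown was compared with WT to ask whether loss of HMGB2 alone moved the same genes. WT itself differed from the young columns, in tables counted differently. The summed level of 12 proliferation genes was 316 and 323 CPM in WT, beside 1066 and 1178 CPM in young I79 and I10. Old I79 and I10 had 218 and 332 CPM. HMGB2 stood at 27.1 and 27.3 CPM in WT, beside 38.2 and 46.3 CPM in old I79 and I10. The knockdown is thus not read as loss of HMGB2 from the young state. CBX1 rose, and it was the only one of the 10 called, of 9 tested, against 5.2% of 15338 genes in either direction and 2.86% higher. The WT libraries had 67.2 and 60.7 CPM and the HMGB2 KD libraries 89.8 and 106 CPM, or 64.0 ± 4.61 and 97.7 ± 11.2 CPM (SD, n = 2). The libraries did not overlap, as for 53.8% of all genes tested. The log2 fold change was 0.61 (SE 0.13, adjusted p 0.0084 by edgeR). This call was marginal, since the fold minimum was 0.6. It was lost without WT replicate 1 (0.69, adjusted p 0.025), without WT replicate 2 (0.54, adjusted p 0.097), without HMGB2 KD replicate 2 (0.49, adjusted p 0.0495) and with 1 RUVs factor (0.58). Over 11 settings the fold change stayed between 0.49 and 0.71.

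The other HP1 genes were not called. CBX3 had 250 and 218 CPM in the WT libraries and 218 and 193 CPM after knockdown (log2 fold change -0.19, adjusted p 0.47 by edgeR). CBX5 had 79.5 and 94.2 CPM in the WT libraries and 80.6 and 78.4 CPM after knockdown (-0.13, adjusted p 0.62). For both, the libraries of the groups overlapped.

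Nor were the enzyme genes. SUV39H1 had 4.79 and 4.18 CPM in the WT libraries and 3.99 and 4.26 CPM after knockdown (-0.12), and SUV39H2 at 8.27 and 7.61 CPM and at 7.18 and 6.07 CPM (-0.26, SE 0.20, adjusted p 0.47). SETDB1 (-0.07), EHMT1 (0.00) and TRIM28 (0.06) had fold changes near 0. ATRX had 124 and 140 CPM in the WT libraries and 117 and 106 CPM after knockdown (-0.24, SE 0.13, adjusted p 0.29). The HMGB2 KD libraries lay below both WT libraries for ATRX and SUV39H2 and above them for TRIM28, as was seen for 26.4% of all genes tested in the lower direction and 27.4% in the higher. The median over the 9 genes was -0.12, beside 0.00 for all genes.

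EHMT2 was listed at 0 in all 4 WT and HMGB2 KD libraries, although it had 40.4 CPM or more in every old and young column. Of 23 protein-coding genes within 500000 bases of EHMT2 that had at least 10 CPM in every old and young column, 8 were likewise at 0 in all 4 libraries (34.8%), against 124 of 8262 such genes over the genome. No fold was computed for EHMT2, and its 0 is not read as absence of expression.

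No gene of the related lists was called after HMGB2 knockdown by edgeR, that is none of 8 writers and cofactors, 11 demethylases, 5 HUSH and MORC genes, 19 HP1 binding genes and 3 H4K20 methyltransferases. DESeq2 called 0 of them, and 8 of the 46 had an unadjusted p under 0.05 in edgeR, 4 higher and 4 lower. No share of all genes was taken at that unadjusted p, so such counts here are not set against a background. DAXX, 1 of the 19 HP1 binding genes, rested on 91 to 140 counts here. It had at most 4.09 CPM in these libraries, beside 69.3 CPM or more in every old and young column, so its lack of a call carries that limit. None of the 12 proliferation genes was called by either tool (median 0.01, 1 at an unadjusted p under 0.05), and HMGB1, the paralog of HMGB2, had a log2 fold change of 0.02. Other markers moved with CBX1. The summed level of 8 fibroblast markers was 17394 and 23549 CPM in the WT libraries and 27014 and 32896 CPM after knockdown, with 4 of the 8 above 0 and 4 below, COL1A1 (1.00), PDGFRB (1.06) and VIM (0.78) called higher and COL3A1 (-1.18) called lower. That of 3 smooth muscle markers was 9.96 and 12.7 CPM in the WT libraries and 32.3 and 45.1 CPM after knockdown, all but a trace of it CNN1. MYH11 was listed at 0 in all 4 libraries. It had 32.3 and 28.5 CPM in young and 3.74 and 2.71 CPM in old I79 and I10, so its 0 is not read as absence of expression. The part of these markers in the CBX1 difference was not tested.

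**Figure D2:**
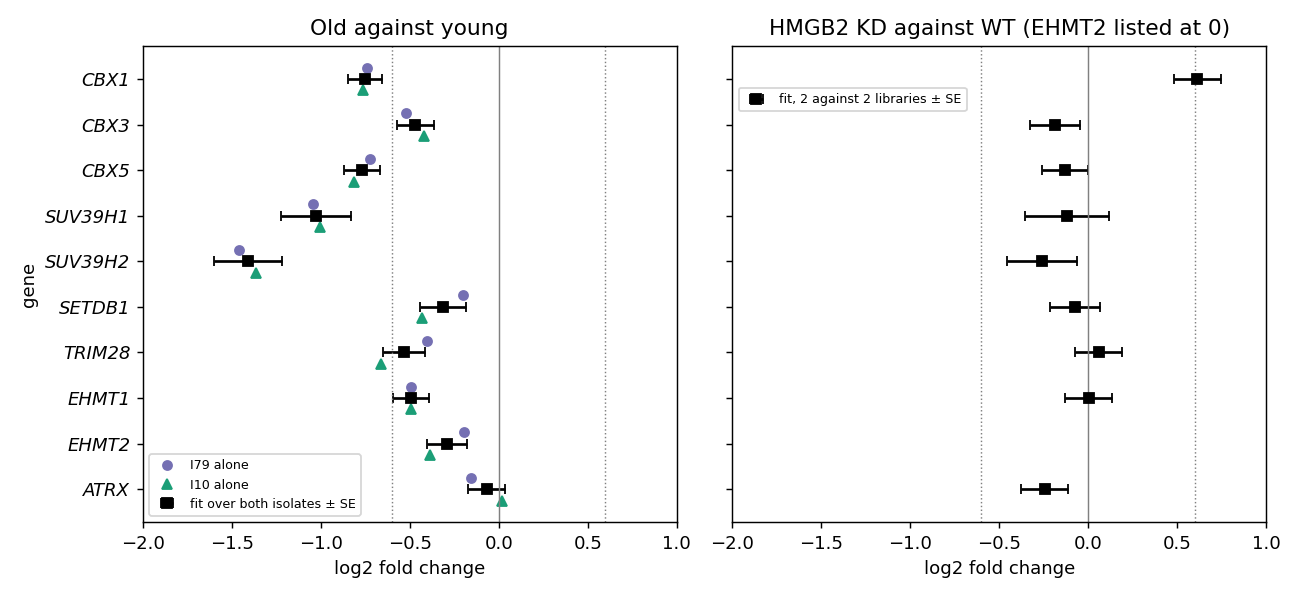
Log2 fold change of each gene for old against young (left) and HMGB2 KD against WT (right). Squares are the edgeR fit with its SE, circles and triangles the ratio within I79 and I10, and dotted lines mark 0.6 in either direction. All 10 squares on the left lie below 0, from -0.07 for ATRX to -1.41 for SUV39H2, and on the right CBX1 alone lies past 0.6, at 0.61.

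**Figure D3:**
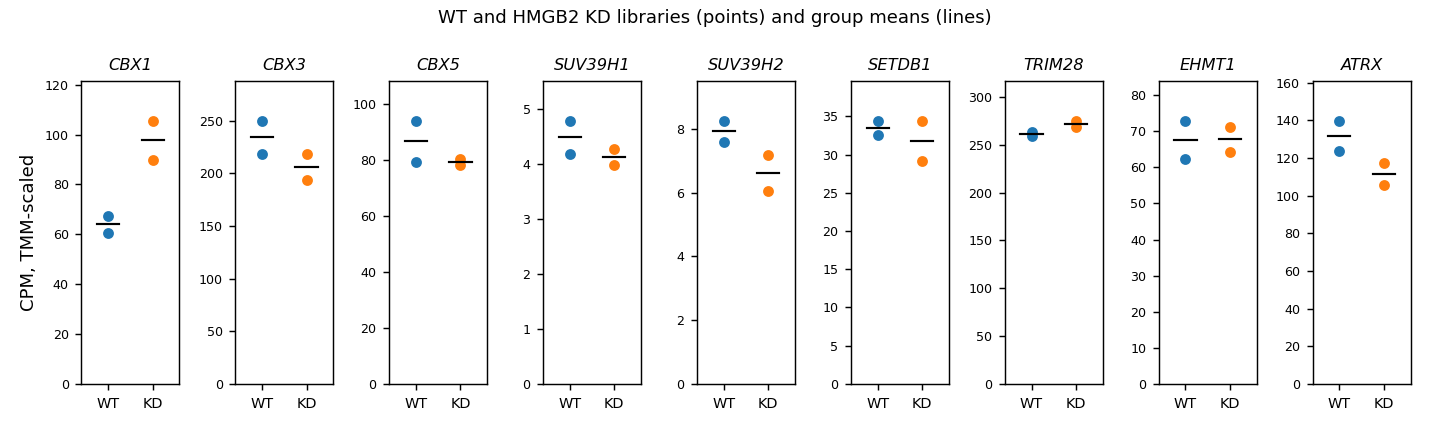
Level of the 9 measured genes in CPM (TMM-scaled, axes from 0) in each WT and HMGB2 KD library (points), with group means as lines. The CBX1 libraries are apart, at 67.2 and 60.7 against 89.8 and 106 CPM, and those of CBX3, CBX5, SUV39H1, SETDB1 and EHMT1 overlap.

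ICM-treated I79 cells were set beside the I79 columns. The ICM tables were counted by transcript region and in another way than the old and young tables, so no test was run, and each log2 ratio of CPM (over 14849 genes, prior count 2) carries the difference in counting along with that in treatment. All 10 genes were lower in ICM than in I79 young by more than 0.6, where 30.3% of all genes were. Their log2 ratios ran from -0.66 to -1.59 with a median of -1.12, beside -0.01 over all genes. Markers moved too. The median ratio of 12 proliferation genes was -6.03, with 11 lower by more than 0.6, and that of 8 fibroblast markers was -0.75, with 4 lower by more than 0.6 (PDGFRB at -2.12 and VIM at -1.07 among them). Among smooth muscle markers MYH11 stood at -1.83 and DES at 1.61. Their part in the ratios of the 10 genes was not tested. WT, which was not treated with ICM and was counted in yet another way, was placed beside them, although it differed from I79 young in more than counting, with a median of -2.03 over the proliferation genes (10 of 12 lower by more than 0.6), 1.66 for CDKN1A and -2.23 for HMGB2. Set against I79 young, WT was lower by more than 0.6 for 3 of 9 genes (23.7% of all genes), CBX1 (-0.97), CBX5 (-1.19) and SUV39H1 (-1.13).

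CBX3 was at 103 and 105 CPM in the ICM libraries and 238 CPM in I79 young on this scale (ratio -1.20), with a WT ratio of 0.09. CBX5 was at 81.4 and 75.2 CPM in ICM and 214 CPM in I79 young (-1.45), and CBX1 at 89.2 and 82.5 CPM in ICM and 136 CPM in I79 young (-0.66). For CBX1 the WT ratio was thus further below 0 than the ICM ratio. For CBX5 and SUV39H1 the WT ratios were -1.19 and -1.13, beside ICM ratios of -1.45 and -1.59. SETDB1 had an ICM ratio of -1.34 (12.6 and 14.0 CPM in ICM, 33.7 CPM in I79 young) and a WT ratio of 0.11. ATRX had an ICM ratio of -1.54 (50.5 and 46.9 CPM in ICM, 141 CPM in I79 young) and a WT ratio of 0.02. The ICM ratio was -0.66 for TRIM28, -0.97 for EHMT1, -0.80 for EHMT2 and -1.05 for SUV39H2. The WT ratio was 0.15 for TRIM28, 0.18 for EHMT1 and -0.58 for SUV39H2. Against WT in place of I79 young, 5 of 9 genes were lower by more than 0.6 (28% of all genes), CBX3, SETDB1, TRIM28, EHMT1 and ATRX, and CBX1 stood above 0, at 0.31.

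Set against I79 old, the ICM libraries were lower by more than 0.6 for SETDB1 (-0.97) and ATRX (-1.21) and for no other of the 10 genes, where 26.9% of all genes were. CBX3 (-0.51) and CBX5 (-0.56) lay below 0, while SUV39H2 (0.55) and CBX1 (0.25) lay above it. The median of the 10 was -0.42, and that of all genes 0.11. The corresponding ratio of I79 old to I79 young was -0.32 for ATRX and -0.37 for SETDB1, where the median of all genes was -0.135. This scale is without TMM. With TMM within the old and young columns, the I79 ratios were -0.15 for ATRX and -0.20 for SETDB1. The ratios to I79 young share that column, and are placed side by side for that reason only.

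**Figure D4:**
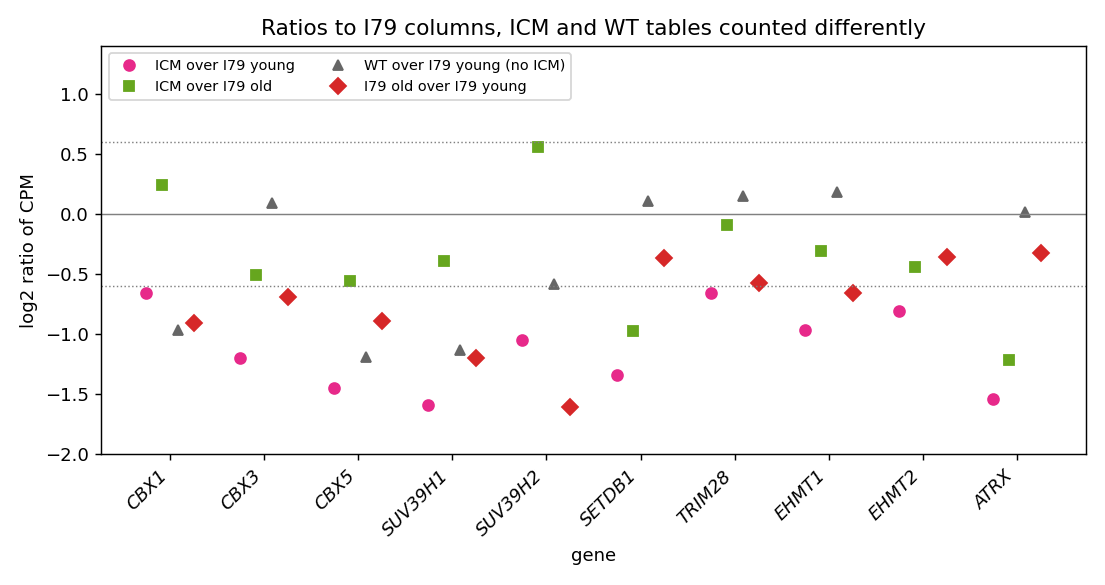
Log2 ratio of CPM for each gene, ICM over I79 young (circles), ICM over I79 old (squares), WT over I79 young (triangles) and I79 old over I79 young (diamonds), with no test. Dotted lines mark 0.6 in either direction. All ICM over I79 young points lie at -0.66 or below, and WT points of CBX1, CBX5 and SUV39H1 lie past -0.6 as well. EHMT2 has no WT point because it was listed at 0.

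The reads of the ICM libraries could be followed by transcript region. In CBX5, 88.1% and 86.6% of reads lay in the 3′ UTR and 7.56% and 10.4% in the coding region, where all genes together had 25.3% and 24.2% in the 3′ UTR and 61.1% and 61.9% in the coding region. In CBX1 the 3′ UTR took 52.8% and 51.3%. TRIM28 and EHMT2 were the other way round, with 96.7% and 98.1%, and 96.7% and 97.3%, of reads in the coding region. UTR reads could be left out of the ICM libraries alone, since the I79 columns give no regions, which by construction lowers the ratio of a gene read mostly in its UTRs and raises that of a gene read mostly in its coding region. With that limit, 8 of the 10 genes were lower than in I79 young by more than 0.6, and TRIM28 (-0.07) and EHMT2 (-0.22) were not. The share of all genes given above is for all regions, and none is given here for coding reads alone. SUV39H1 rested on 43 and 39 reads and SUV39H2 on 80.3 and 65.0 reads in the ICM libraries.

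The 3 HP1 genes were then compared with each other per length, as each gene's share of their summed level within a library. CBX3 took the largest share in 8 of 10 libraries and columns. It was 61.9% in I79 young and 65.9% in I79 old, and 61.5% and 65.4% in I10. CBX5 went from 9.98% to 8.0% in I79 and from 10.4% to 8.60% in I10, and CBX1 from 28.1% to 26.1% and from 28.0% to 26.0%. The direction of each of these shifts was the same in both isolates. In WT, CBX1 took 24.1% and 24.0%, and in HMGB2 KD 32.3% and 38.5%, while CBX3 went from 66.9% and 64.3% to 58.6% and 52.5%. In the ICM libraries CBX1 took 46.6% and 44.6% and CBX3 40.0% and 42.5%. That order depended on the length used, since with the longest annotated transcript CBX3 took 52.4% and 54.9% there and was largest in 10 of 10. The mean coding length was 1181 bases for CBX1 and 3737 for CBX5, while CBX1-201 and CBX5-201 were listed with 2232 and 11528 bases. The WT and HMGB2 KD shares carry the same limit. With the longest transcript CBX1 took 18.2% and 18.5% in WT and 25.3% and 30.9% in HMGB2 KD.

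**Figure D5:**
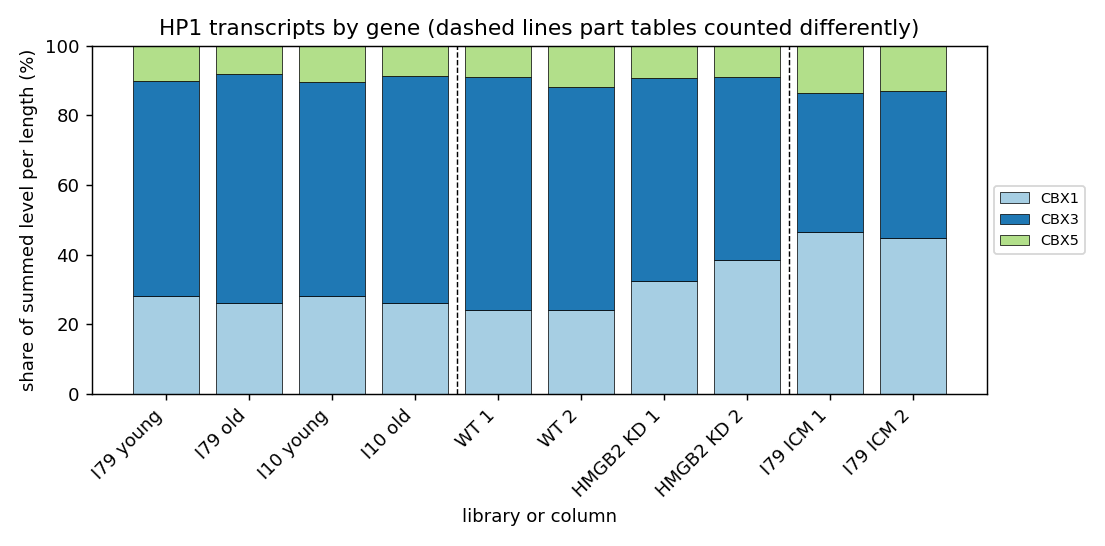
Share (%) of CBX1, CBX3 and CBX5 in their summed level per length in each library or column, with dashed lines between tables that were counted differently. CBX3 is the largest share outside the ICM libraries, at 52.5% to 66.9%, and the CBX1 share is 24.1% and 24.0% in WT and 32.3% and 38.5% in HMGB2 KD.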

How the data were processed

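Poly(A) RNA libraries of IMR90 were grouped by sample title. The 10 genes and all related lists and motifs were chosen with earlier results of these data known. Raw counts per gene were deposited by the authors for the WT and HMGB2 KD libraries. The submitters' processing notes name STAR 2.6.0c, featureCounts, DESeq2 and GRCh37, while these tables end with summary rows (16.9% to 18.0% of the total, left out here) of the kind htseq-count writes. For old and young groups the authors deposited estimated counts and TPM per transcript, 1 column per group, the quantifier being not given in the sources used here. It is not stated whether a column pools the replicates, so it was used as the authors' value with no SD or n. For ICM the authors deposited estimated counts per gene and transcript region in 2 libraries. The deposited table of the authors' own fold changes and p-values was not used.

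Estimated counts were summed per gene through GENCODE v44lift37, which matched 97.7% of transcript IDs, and rounded. The quasi-likelihood test of edgeR 4.0.16 under R 4.3.3 was run after TMM scaling and filterByExpr, and p-values were adjusted by Benjamini-Hochberg over all genes tested. Calls followed the thresholds of the study's methods (0.01 for the adjusted p, 0.6 for the size of the log2 fold change). HMGB2 KD was fitted against WT without covariates, and old against young with isolate. Ratios between tables used CPM over shared genes with a prior count of 2 and at least 10 counts, with no test. HP1 levels per length were TPM, or counts over the mean coding transcript length. Intervals (exact Clopper-Pearson, 95%) cover counting error only, as the reads carry no molecular identifiers. All 10 genes were named in each comparison, with called genes of each related list (at most the 4 largest, with LBR added after its value was seen) and neighbours starting within 1000 bases on the other strand. DESeq2 1.42.0, other scaling, filters, thresholds, pseudogene counts, a replicate block, 1 RUVs factor and left-out replicates were alternatives. Replicates differed beyond counting noise in WT, HMGB2 KD and ICM, with chi-square values of 27.1, 41.4 and 2.23 per degree of freedom. The edgeR fits were tested on simulated counts with known fold changes.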

Additional observations from a re-analysis of the deposited data

Results flagged for a closer look

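The ATRX values of the isolates had opposite signs. Its log2 ratio of old to young was -0.15 in I79 (95% exact counting interval -0.25 to -0.06) and 0.02 in I10 (-0.06 to 0.10). The I10 interval includes 0, and the difference between the isolates was not tested, since each group had 1 column.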

How the results depend on the processing

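The count of genes called for HMGB2 KD against WT, 797, ranged from 312 (without HMGB2 KD replicate 2) to 999 (without HMGB2 KD replicate 1) when 1 library was left out, and that of the 10 genes from 0 to 1, with 0 also under 1 RUVs factor. With a replicate block it was 1243, of which 1 was among the 10 genes. The same replicate number is not stated to mark a shared culture, and deviations of same-numbered samples correlated at 0.18. SETDB1 and EHMT1 had fold changes near 0 that changed sign, SETDB1 between -0.21 and 0.045 when either HMGB2 KD library was left out, and EHMT1 to -0.0012 with DESeq2 size factors, -0.0058 with no filter, -0.0045 in DESeq2, -0.028 with 1 RUVs factor, -0.068 without HMGB2 KD replicate 2 and between -0.11 and 0.12 without WT replicate 1 and without WT replicate 2.

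For old against young, 1414 genes were called, 3847 at an adjusted p under 0.05 and 4250 with no filter on low counts. Of the 10 genes 3 were called, 1 (CBX5) with counts rebuilt from deposited TPM, where ATRX changed sign to 0.17. CBX5 was called under all 7 settings, CBX1 under 6, SUV39H2 under 5 (not in DESeq2 or with TPM counts) and SUV39H1 under 1 beside the looser threshold. DESeq2 called 1392 transcripts, 1 of them of the 10 genes, where edgeR called 0. For ICM, a mean of at least 100 counts gave 5817 genes past 0.6 against I79 young and 5783 against I79 old, from 9017 and 8985, because fewer genes were compared. WT in place of I79 young gave 5 of 9 lower, where 10 of 10 were. Against I79 old, 2 were lower, and 5 with TMM over all tables or with coding ICM reads only, the latter by construction since UTR reads left the ICM side alone. No share of all genes is given for these 2 settings. WT in place of I79 old is the same ratio of ICM to WT, with 5 lower. Causes were not tested otherwise. Under the settings run, the direction of CBX1, CBX5, SUV39H1 and SUV39H2 in old cells did not turn. Depth limits SUV39H1 and SUV39H2 most, with 39 to 84 reads in ICM and old columns.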
